A study of Rattus norvegicus with 24 samples.

Results

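The 9 genes described here are receptors for the catecholamines noradrenaline, adrenaline and dopamine, and genes grouped with the enzymes that degrade them. They are the alpha2 adrenoceptors Adra2a, Adra2b and Adra2c, the alpha1 adrenoceptor Adra1b, the beta1 adrenoceptor Adrb1, the dopamine D4 receptor Drd4, the methyltransferase domain gene Comtd1, and the monoamine oxidases Maoa and Maob. They were taken by symbol from the 17420 genes of the table that the authors deposited, and all 9 were found. RNA was sequenced from the hippocampus and neocortex of 24 Sprague-Dawley rat pups of both sexes on embryonic day 18, as bulk tissue, in which fewer cells of a type and less RNA per cell cannot be told apart. The 4 groups of 6 pups are 3 prenatal models of schizophrenia and their control, and each holds 3 pups from each of 2 litters.

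Control dams received saline on gestational day 17. MAM dams received methylazoxymethanol acetate, a DNA-alkylating agent that kills dividing neural precursors, at 22 mg/kg, and Poly I:C dams received polyinosine:cytosine, a double-stranded RNA that mimics viral infection, at 7.5 mg/kg, both on gestational day 17 and 18 hours before collection. Low Protein dams had a diet with 6.1% protein from gestational day 11, against 20.3% in the control diet. The diet of the dams given MAM or Poly I:C, and whether dams on the low-protein diet were injected, was not given in the sources used here. The dam was treated and the pup was the replicate, so that p-values measure the spread between pups of 2 litters a group. Pups are named by the number in the sample title. Its first digit was taken as the litter (2.1 as pup 1 of litter 2), which the labels do not state.

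Noradrenaline reaches the developing cortex through axons of the locus coeruleus, which grow in before birth, and dopamine through axons of the midbrain. Alpha2 adrenoceptors and the D4 receptor couple to Gi/o proteins and lower cyclic AMP, beta1 adrenoceptors couple to Gs and raise it, and alpha1 adrenoceptors couple to Gq and phospholipase C. After release, catecholamines are oxidized by the monoamine oxidases on the outer mitochondrial membrane or methylated. Comtd1 carries a methyltransferase domain, and its action on catecholamines is not established here.

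The deposited values are TPM values that carry an offset of 0.0001 and sum to 70350.1 in each pup. They fall with the genomic span of a gene, introns included, so levels of different genes are compared only per base of span. From the smallest steps between low values, the depth was estimated at 24.2 to 62.8 M reads per pup (group medians 32.8 for saline, 42.8 for Low Protein, 41.1 for MAM and 29.8 M reads for Poly I:C). Of the 9 members, 4 had a mean above 1 in every group, the limit the study set for its tests, namely Adra2a, Adra2c, Adrb1 and Comtd1. Adra2b, Adra1b, Maoa and Maob lay below it and were tested in a wider fit of 13371 genes that were above the offset in at least 18 pups. Drd4 reached neither and is given by its values alone. All 7 markers of cortical projection neurons were above the offset in every pup, with sums from 127 to 281, whereas only 2 of the 9 markers of monoaminergic neurons in the table were, and Dbh, Slc6a2 and Slc6a3 were at the offset in at least 1 pup.

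The order of the levels per base of span held in nearly all pups for most neighbouring members, but not for Adra2b and Maoa or for Maob and Drd4. Adra2a was the highest member, with a mean of 4.26 over 24 pups, and exceeded Comtd1, at 2.80, in all 24. Comtd1 exceeded Adra2c, at 1.52, in all 24 pups, and Adra2c exceeded Adrb1, at 1.20, in 21. Adra2b and Maoa, at 0.255 and 0.253, were the neighbours with the least order, Adra2b being higher in 11 of 24 pups. Adra1b, at 0.0264, exceeded Maob, at 0.0195, in 22 pups, and Drd4 was last at 0.0113, below Maob in 17. These low values of Adra1b, Maoa and Maob go with long spans of 118371, 66134 and 103661 bases, while the adrenoceptors Adra2a, Adra2b, Adra2c and Adrb1 span 2801, 4047, 1963 and 3012 bases. In estimated reads Maoa led, with a median of 756 per pup against 525 for Adra2a and 383 for Comtd1, and Adra2b was the shallowest of the fitted members at 49.9.

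**Figure D1:**
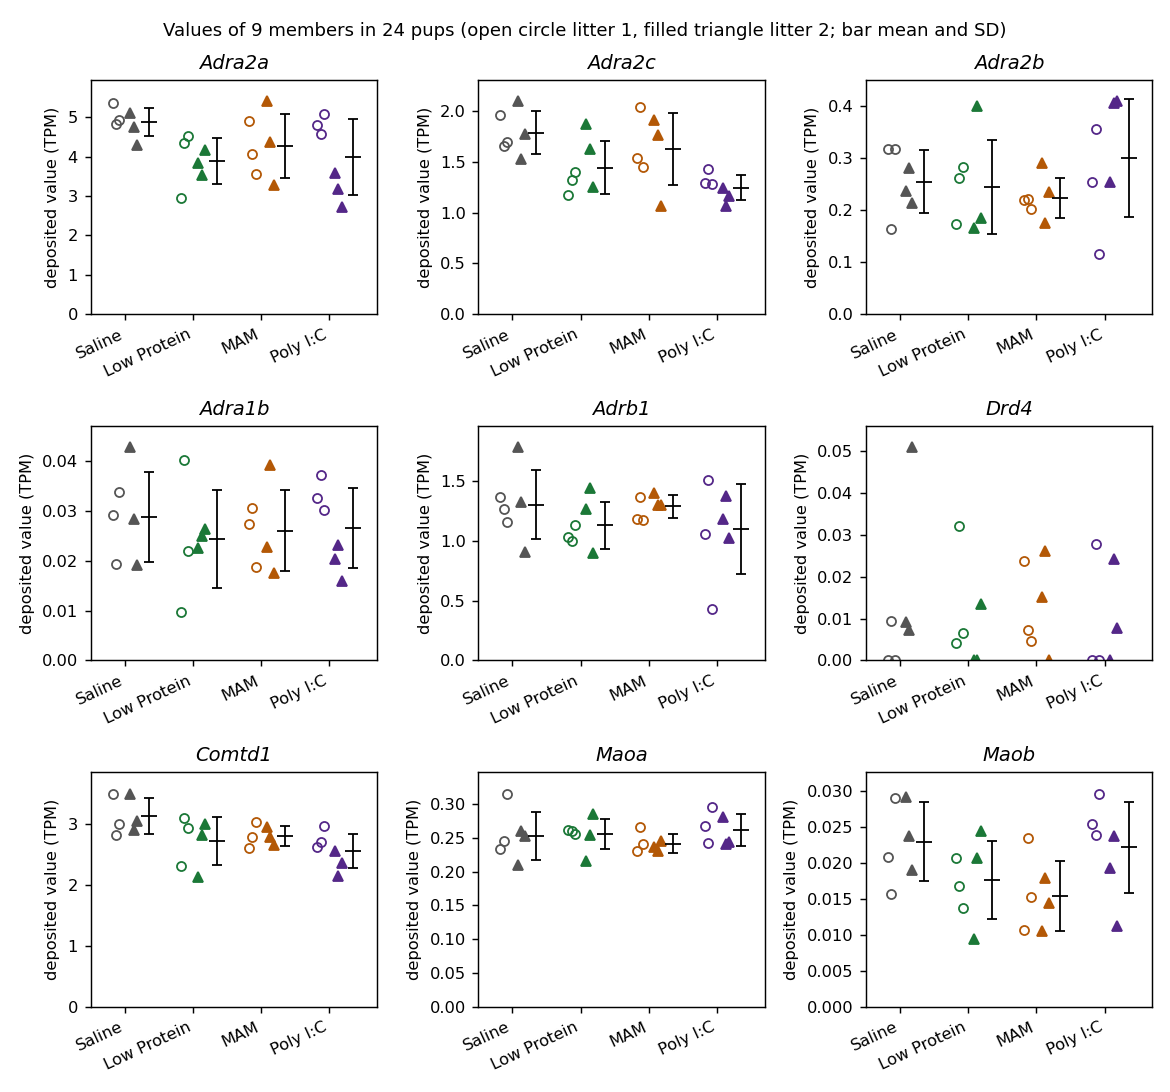
Deposited value (TPM with the offset, linear axis from 0) of each of the 9 genes in every pup, by treatment group, with open circles for litter 1, filled triangles for litter 2 and a bar for the mean and SD of 6 pups (not drawn for Drd4). Every Poly I:C pup lies below every saline pup for Adra2c, the Adra2a values of Poly I:C split by litter, and 1 Poly I:C pup lies far below the others for Adrb1.

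Adra2a, the main autoreceptor of noradrenergic neurons and also a receptor on their target cells, was lower on average in each treatment group than in saline. In saline pups the lowest, median and highest values were 4.30, 4.88 and 5.37, in Low Protein pups 2.96, 4.00 and 4.53, in MAM pups 3.28, 4.23 and 5.41, and in Poly I:C pups 2.73, 4.09 and 5.09. Below the lowest saline pup lay 4 of 6 Low Protein, 3 of 6 MAM and 3 of 6 Poly I:C pups, so that each group overlapped saline. The means were 4.88 ± 0.359 for saline, 3.90 ± 0.580 for Low Protein, 4.27 ± 0.803 for MAM and 4.00 ± 0.962 for Poly I:C (SD, n = 6 pups). The log2 difference from saline, by limma with Benjamini-Hochberg adjustment over 5086 genes, was -0.34 in Low Protein (95% interval -0.63 to -0.05, adjusted p = 0.546) and -0.32 in Poly I:C (-0.61 to -0.03, adjusted p = 0.440). Both passed an unadjusted p under 0.05, called the unadjusted threshold from here on, and neither passed it on litter means. For Low Protein and Poly I:C the study also asked for a log fold change of at least 0.6 in size. By the limma estimates given here, 0 of the 8 fitted members reached it in either comparison. The study itself, which tested in Partek Flow, reported Adra2a, Adra2c and Comtd1 as decreased in both. The MAM difference of Adra2a, -0.21 (-0.50 to 0.08, limma adjusted p = 0.514), did not pass the unadjusted threshold. An exact two-sided permutation test of 6 pups against 6 gave p = 0.00649 for Low Protein, 0.0758 for Poly I:C and 0.117 for MAM, where 0.00216 is the smallest p that the 924 splits allow.

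The Poly I:C values of Adra2a divided by litter. The 3 pups of litter 1 averaged 4.83 ± 0.255 (SD, n = 3), inside the saline range, and the 3 pups of litter 2 averaged 3.17 ± 0.430 (SD, n = 3), below every saline pup. Litter 2 minus litter 1 was -0.61 on the log2 scale (standard error 0.166, 95% interval -0.96 to -0.27, limma adjusted p = 0.102). Across the 5086 genes above the limit, 15.4% passed an unadjusted p under 0.05 in that litter comparison and 0% passed after adjustment. Without litter 2 the log2 difference of Adra2a from saline was -0.01 (limma adjusted p = 0.999), and without litter 1 it was -0.63 (limma adjusted p = 0.0218). Without litter 1, 964 of the 5086 genes passed an unadjusted p under 0.05 against saline. The number was 228 without litter 2 and 506 with all pups. The Poly I:C difference also lost the unadjusted threshold without any single pup of litter 2, without saline pup 1.1 or 2.1, and without either saline litter (-0.37 to -0.22). In the other groups the litters of Adra2a lay close together, with means of 5.04 and 4.72 in saline, 3.94 and 3.85 in Low Protein, and 4.18 and 4.36 in MAM.

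Adra2c, an alpha2 receptor that also acts as an autoreceptor and is best known from the striatum and hippocampus, showed the largest difference from saline of the 4 members above the limit, in Poly I:C pups. The lowest, median and highest values were 1.53, 1.74 and 2.10 for saline, 1.18, 1.36 and 1.87 for Low Protein, 1.06, 1.65 and 2.04 for MAM, and 1.06, 1.26 and 1.43 for Poly I:C. The highest Poly I:C pup was thus below the lowest saline pup. The means were 1.79 ± 0.209 for saline, 1.44 ± 0.262 for Low Protein, 1.63 ± 0.354 for MAM and 1.24 ± 0.125 for Poly I:C (SD, n = 6), and the Poly I:C mean was 0.696 times that of saline. The log2 difference in Poly I:C was -0.52 (standard error 0.130, 95% interval -0.79 to -0.25, limma adjusted p = 0.166, exact permutation p = 0.00216, the smallest possible). Groups did not overlap for 0.492% of the genes above the limit in this comparison. Both Poly I:C litters were below the saline litters, at 1.33 ± 0.0843 and 1.16 ± 0.0897 against 1.77 ± 0.167 and 1.80 ± 0.284 (SD, n = 3 each). Without litter 1 the log2 difference was -0.62 (limma adjusted p = 0.0365), and without litter 2 it was -0.42 (limma adjusted p = 0.954), past the unadjusted threshold in both.

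In Low Protein pups Adra2c was 0.806 times the saline mean, with a log2 difference of -0.32 (standard error 0.130, 95% interval -0.59 to -0.05, limma adjusted p = 0.543, exact permutation p = 0.0325). Of the 6 Low Protein pups, 4 lay below the lowest saline pup. Litter 1 averaged 1.30 ± 0.114 and litter 2 averaged 1.58 ± 0.313 (SD, n = 3 each), a log2 difference between litters of 0.27 (limma adjusted p = 0.542). Without litter 1 the difference from saline was -0.19 (limma adjusted p = 0.673), and without litter 2 it was -0.46 (limma adjusted p = 0.672), the latter alone past the unadjusted threshold. In MAM pups it was -0.16 (95% interval -0.43 to 0.11, limma adjusted p = 0.581), and 2 of 6 pups were below the lowest saline pup.

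Comtd1 was lower on average in every treatment group. Its lowest, median and highest values were 2.81, 3.02 and 3.49 for saline, 2.13, 2.87 and 3.08 for Low Protein, 2.59, 2.78 and 3.03 for MAM, and 2.14, 2.58 and 2.96 for Poly I:C. Below the lowest saline pup lay 2 Low Protein, 4 MAM and 5 Poly I:C pups. The means were 3.12 ± 0.297 for saline, 2.71 ± 0.395 for Low Protein, 2.79 ± 0.167 for MAM and 2.55 ± 0.282 for Poly I:C (SD, n = 6). The log2 difference was -0.29 in Poly I:C (standard error 0.0887, 95% interval -0.48 to -0.11, limma adjusted p = 0.259, exact permutation p = 0.00649). Low Protein gave -0.21 (-0.40 to -0.03, limma adjusted p = 0.546, exact permutation p = 0.0931), and MAM gave -0.16 (-0.34 to 0.03, limma adjusted p = 0.472, exact permutation p = 0.0411). The Low Protein difference lost the unadjusted threshold in 8 of 44 alternatives, among them Eif2s3y, a gene of the Y chromosome, as a covariate (-0.19), leaving out saline pup 1.1 (-0.18) and leaving out Low Protein pup 2.1 (-0.15). The Poly I:C litters averaged 2.76 ± 0.180 and 2.35 ± 0.202 (SD, n = 3 each). Without litter 2 the Poly I:C difference was -0.18 (limma adjusted p = 0.954), no longer past the unadjusted threshold, and without litter 1 it was -0.41 (limma adjusted p = 0.0320).

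Adrb1, a stimulatory receptor for noradrenaline and adrenaline, varied among pups and did not pass the unadjusted threshold against saline over pups. Its lowest, median and highest values were 0.907, 1.30 and 1.78 for saline, 0.898, 1.08 and 1.44 for Low Protein, 1.18, 1.30 and 1.40 for MAM, and 0.433, 1.12 and 1.51 for Poly I:C. All 3 treatment groups overlapped saline. The log2 difference was -0.19 in Low Protein (95% interval -0.62 to 0.23, limma adjusted p = 0.833), 0.01 in MAM (-0.41 to 0.43, limma adjusted p = 0.986) and -0.32 in Poly I:C (-0.74 to 0.11, limma adjusted p = 0.629). In Poly I:C, pup 1.3 was at 0.433 against 1.02 to 1.51 in the other pups, and without it the difference was -0.07 (limma adjusted p = 0.870). Without Poly I:C pup 1.2 or without Poly I:C litter 2 the difference was -0.43 or -0.53, past the unadjusted threshold, which it also passed on litter means (-0.32). Pup 1.3 also had the lowest Adra2b value of all 24, 0.116. Its summed level of the 5 choroid plexus markers was 32.5, against 139 to 244 in the other Poly I:C pups and 122 to 182 in saline, with all 5 markers above the offset in every pup, and its summed level of 4 pericyte markers, 1.80, was the lowest of all pups. MAM pups 1.3 and 2.3, with choroid plexus sums of 56.1 and 68.9, had Adrb1 values of 1.18 and 1.30, against 0.907 to 1.78 in saline. The part of these cells in the Adrb1 value was not tested.

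**Figure D2:**
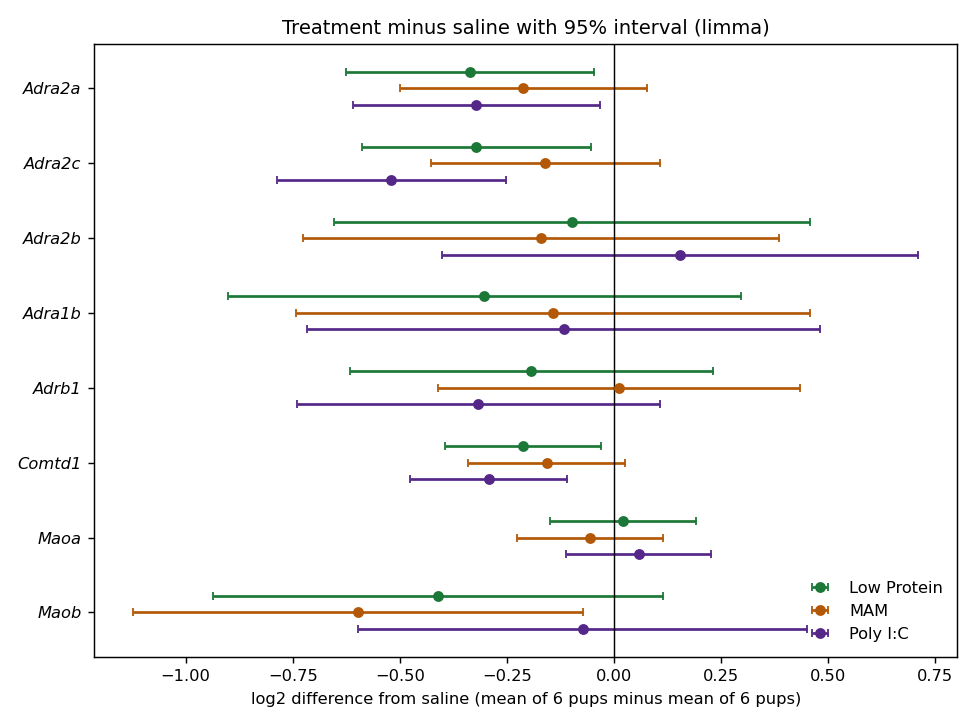
Log2 difference of each treatment group from saline (horizontal axis, mean of 6 pups minus mean of 6 saline pups) for the 8 fitted members, with points for the limma estimate and bars for its 95% interval. The interval lies below 0 for Adra2a, Adra2c and Comtd1 in Low Protein and Poly I:C and for Maob in MAM, and the Maoa intervals are the narrowest of the members below the limit.

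Counted together, 3 of the 4 members above the limit, Adra2a, Adra2c and Comtd1, were lower than saline at an unadjusted limma p under 0.05 in Low Protein pups. The same 3 passed in Poly I:C pups and 0 in MAM pups. The study had already reported these 3 genes as decreased in Low Protein and Poly I:C, from the same pups. For Comtd1 it reported no such decrease with MAM. Here Comtd1 differed from saline by -0.16 in MAM (limma adjusted p = 0.472), and Low Protein minus MAM was -0.06 (limma adjusted p = 0.851). The members were chosen with earlier results of these data known, so their counts and medians are not independent of that report. All 3 comparisons share the saline pups. Of all 5086 genes above the limit, 8.24% passed that threshold for Low Protein, 4.58% as lower. The shares were 11.2% for MAM, 8.18% as lower, and 9.95% for Poly I:C, 5.7% as lower. Of the genes that passed for MAM, 27.3% were higher as deposited, 60.6% with median-of-ratios scaling and 56.5% with upper-quartile scaling. After Benjamini-Hochberg adjustment 0 members passed in any comparison, beside 0%, 0.0197% and 0% of all genes above the limit. Adra2c in Poly I:C was the only member without overlap, and groups did not overlap for 0.747% of genes in Low Protein and 0.786% in MAM. The median log2 difference of the 4 members was -0.27 for Low Protein, -0.16 for MAM and -0.32 for Poly I:C, beside -0.01, -0.05 and 0.01 over all 5086 genes. On litter means, with the litter as the unit, Adra2c and Comtd1 passed in Low Protein, and Adra2c, Comtd1 and Adrb1, but not Adra2a, in Poly I:C. Of all 5086 genes, 262 passed on litter means for Low Protein and 312 for Poly I:C. The Low Protein count was 0 without Low Protein pup 1.1 or without saline litter 1, and 1 without saline pup 2.1, saline litter 2 or either Low Protein litter. In those settings 271 to 521 of the 5086 genes passed for Low Protein, against 419 with all pups. A limma F-test over the 4 groups gave an adjusted p = 0.149 for Adra2c, an adjusted p = 0.229 for Comtd1, an adjusted p = 0.377 for Adra2a and an adjusted p = 0.611 for Adrb1. Unadjusted, Adra2c and Comtd1 passed, as did 16.4% of genes.

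The treatments were also set against each other. Of 12 contrasts, 4 members in 3 pairs of treatments, 1 passed an unadjusted p under 0.05. Adra2c was lower in Poly I:C than in MAM by a log2 difference of -0.36 (standard error 0.130, 95% interval -0.63 to -0.09, limma adjusted p = 0.104), in a comparison in which 23.1% of the genes above the limit passed. It lost the threshold without MAM litter 1 (-0.30) or without Poly I:C litter 2 (-0.26). The count of 1 was 0 without MAM litter 1, 4 without Poly I:C litter 1, and 2 without MAM pup 2.3, Poly I:C pup 1.2, Low Protein litter 1 or Poly I:C litter 2. The share of all genes that passed between treatments was not computed in these settings, so these counts cannot be read as particular to the members. Against saline, 964 genes passed in Poly I:C without its litter 1 and 506 with all pups. Poly I:C minus Low Protein gave -0.20 for Adra2c (limma adjusted p = 0.897) and 0.02 for Adra2a (limma adjusted p = 0.996), where 5.31% of genes passed. Low Protein minus MAM gave -0.16 for Adra2c (limma adjusted p = 0.676) and -0.12 for Adra2a (limma adjusted p = 0.772), where 11% passed. For Comtd1 the differences between treatments ran from -0.14 to -0.06.

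Several marker lists moved in the same comparisons. In Low Protein, 7 of the 10 ganglionic eminence and GABAergic genes of the table were lower at an unadjusted limma p under 0.05, and their summed level ran from 46.2 to 70.3, against 56.0 to 120 in saline, with all 10 above the offset in every pup. Of 6 oligodendrocyte lineage genes, all above the offset in every pup, 2 were lower, with sums of 10.6 to 19.2 against 15.7 to 29.5. The summed level of 7 striatum genes ran from 2.31 to 6.70 in Low Protein, against 4.11 to 14.6 in saline, and 0 of the 7 passed. In the wider fit 7.08% of all 13371 genes passed for Low Protein. In Poly I:C, the summed level of 6 proliferation genes ran from 32.3 to 41.5, against 29.0 to 33.1 in saline, and that of 7 genes of neuronal maturation from 251 to 293, against 276 to 320, with every gene of both lists above the offset in every pup. At the unadjusted threshold only 1 of the 6 was higher and 1 of the 7 lower, where 9.2% of all 13371 genes passed for Poly I:C. The summed level of 3 thalamus genes ran from 0.638 to 4.80 in Poly I:C, against 0.877 to 3.62 in saline. Of these 3 genes 1 was higher at the unadjusted threshold and 0 lower. Poly I:C litter 2, whose pups had the 3 lowest Adra2a values of their group, held the 3 highest proliferation sums of the group, 36.7, 41.5 and 40.8. Saline pup 2.1 had the highest ganglionic eminence sum of all pups, 120, the highest striatum sum, 14.6 against 4.11 to 8.19 in the other saline pups, and the highest Adra2c, Adrb1 and Adra1b values of all pups. Its cortical projection neuron sum, 127, was the lowest of all pups, against 205 to 255 in the other saline pups. Its oligodendrocyte lineage sum, 29.5, was the highest of all pups. Without that pup the Poly I:C differences were -0.47 for Adra2c and -0.26 for Comtd1, past the unadjusted threshold, and -0.31 for Adra2a, not past it. In Low Protein, Adra2c and Comtd1 lost the unadjusted threshold without it, at -0.27 and -0.18. The part of these cell types in the results was not tested.

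**Figure D3:**
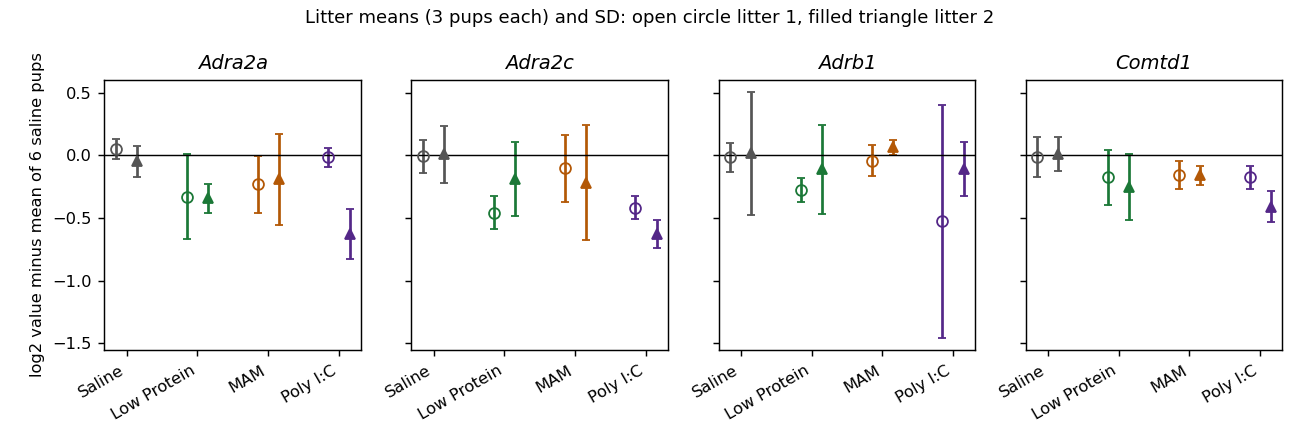
Mean log2 value of each litter minus the mean of the 6 saline pups (vertical axis) for the 4 members above the limit, by group, with open circles for litter 1, filled triangles for litter 2 and bars for the SD of 3 pups. The Poly I:C litters lie apart for Adra2a (-0.61 from litter 1 to litter 2), and both lie below the saline litters for Adra2c.

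Litters within a group were compared for the same 4 members, in 16 contrasts, of which the Adra2a difference in Poly I:C was the only one with an unadjusted p under 0.05. In saline the litter differences ran from -0.10 for Adra2a to 0.03 for Adrb1, where 3.09% of all genes above the limit passed and 0% after adjustment. Low Protein litters differed by 0.27 for Adra2c, where 12.7% of genes passed and 0.0786% after adjustment, and MAM litters by at most 0.11 in size, for Adra2c and Adrb1, where 1.24% and 0% passed. In Poly I:C, Comtd1 differed by -0.23 (limma adjusted p = 0.393) and Adrb1 by 0.42 (limma adjusted p = 0.556) between litters. Of the total sum of squares of the log2 value, litters of a group accounted for 32.9% for Adra2a and treatment groups for 24.4%, whereas for Adra2c groups accounted for 43.8% and litters for 9.51%. The medians over all genes above the limit were 16.7% for groups and 16.8% for litters.

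The promoters of Adra2a, Adra2c and Comtd1 are shown because these 3 members were lower than saline in the same comparisons. Each sequence is the 250 bases before the start of the gene, from RefSeq on the GRCr8 assembly, read along the gene's own strand, at chr1:263066530-263066779 (plus strand), chr14:79697477-79697726 (minus strand) and chr15:2508871-2509120 (plus strand). Capitals mark a GC box, GGGCGG, or TGACG, the core of the cyclic AMP response element, on either strand.
Adra2a: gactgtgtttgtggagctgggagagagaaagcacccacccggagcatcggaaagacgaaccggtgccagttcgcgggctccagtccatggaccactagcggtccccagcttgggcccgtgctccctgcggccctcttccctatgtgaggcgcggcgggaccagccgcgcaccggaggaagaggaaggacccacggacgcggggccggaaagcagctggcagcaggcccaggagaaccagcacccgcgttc
Adra2c: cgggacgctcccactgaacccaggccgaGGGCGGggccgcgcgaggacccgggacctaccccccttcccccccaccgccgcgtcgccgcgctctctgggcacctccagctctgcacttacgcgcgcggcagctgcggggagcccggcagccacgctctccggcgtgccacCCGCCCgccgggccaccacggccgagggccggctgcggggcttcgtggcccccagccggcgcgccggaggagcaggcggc
Comtd1: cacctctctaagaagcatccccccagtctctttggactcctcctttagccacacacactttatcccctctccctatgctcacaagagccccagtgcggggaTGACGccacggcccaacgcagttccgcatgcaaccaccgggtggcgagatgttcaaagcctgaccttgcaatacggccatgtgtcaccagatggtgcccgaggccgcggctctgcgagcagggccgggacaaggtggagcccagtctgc
The Adra2c window was 80.4% G and C, higher than 99.0% of 33469 rat promoter windows of this length, and held 36 CG dinucleotides, against a median of 5 over all windows. Adra2a, at 67.6%, and Comtd1, at 61.2%, were also above the median of 51.2%. Searches of both strands found 2 GC boxes in Adra2c and 0 in Adra2a and Comtd1, where 30.5% of all windows hold at least 1. The core TGACG was found once in Comtd1 and in neither of the others, with a share of 18.2% of windows. No window of the 9 members held TGACGTCA, the full element that contains the core, or the TATA box TATAAA, which 1.59% and 12.9% of all windows hold, and CCAAT, held by 34.0%, was in none of these 3.

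Adra2b, the third alpha2 receptor, which in adults is found mainly in the thalamus and in blood vessels, was low and overlapped between all groups. Its lowest, median and highest values were 0.164, 0.259 and 0.317 for saline, 0.166, 0.223 and 0.399 for Low Protein, 0.174, 0.219 and 0.289 for MAM, and 0.116, 0.305 and 0.409 for Poly I:C. The log2 differences were -0.10 for Low Protein (95% interval -0.65 to 0.46), -0.17 for MAM (-0.73 to 0.39) and 0.15 for Poly I:C (-0.40 to 0.71), with limma adjusted p-values of 0.973, 0.824 and 0.910. The Poly I:C difference was 0.49 without litter 1 (limma adjusted p = 0.346) and -0.18 without litter 2 (limma adjusted p = 0.961).

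Adra1b, the Gq-coupled alpha1 receptor, had the widest spread between pups of the fitted members. Values ran from 0.0192 to 0.0427 with a median of 0.0287 in saline, from 0.00966 to 0.0402 with a median of 0.0238 in Low Protein, from 0.0176 to 0.0392 with a median of 0.0251 in MAM, and from 0.0159 to 0.0371 with a median of 0.0266 in Poly I:C. The groups overlapped throughout. The log2 differences of -0.30 (95% interval -0.90 to 0.30), -0.14 (-0.74 to 0.46) and -0.12 (-0.72 to 0.48) had limma adjusted p-values of 0.870, 0.872 and 0.939. In Poly I:C all 3 pups of litter 1, at 0.0301 to 0.0371, were above all 3 of litter 2, at 0.0159 to 0.0231, the same order of litters as for Adra2a.

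Drd4, a dopamine receptor of the D2 family, was at the limit of detection. It was above the offset in 16 of 24 pups, namely 4 saline, 4 Low Protein, 5 MAM and 3 Poly I:C pups. The highest value was 0.0510, in saline pup 2.3, and no pup had more than 6 estimated reads, 39 in all over 24 pups. Group sums of 9, 8, 14 and 8 reads in saline, Low Protein, MAM and Poly I:C do not allow a comparison. A count of 0 reads in a pup allows up to 3.

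Maoa, which prefers serotonin and noradrenaline as substrates, was the steadiest member. Its lowest, median and highest values were 0.209, 0.249 and 0.316 for saline, 0.216, 0.258 and 0.285 for Low Protein, 0.230, 0.239 and 0.266 for MAM, and 0.241, 0.256 and 0.296 for Poly I:C. Each treatment group lay inside the saline range. The log2 difference was 0.02 for Low Protein (95% interval -0.15 to 0.19, limma adjusted p = 0.984), -0.06 for MAM (-0.23 to 0.11, limma adjusted p = 0.808) and 0.06 for Poly I:C (-0.11 to 0.23, limma adjusted p = 0.880). Maoa and Maob lie on the X chromosome and the sex of each pup is not given. The Y-linked Eif2s3y was above 0.5 in 2 saline, 4 Low Protein, 4 MAM and 2 Poly I:C pups, and with its log2 value as a covariate the Low Protein difference of Maoa was -0.03 (limma adjusted p = 0.969).

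Maob, which acts on dopamine and trace amines and is the form found in serotonergic neurons and glia, was lowest in MAM. Its lowest, median and highest values were 0.0156, 0.0223 and 0.0292 for saline, 0.00943, 0.0187 and 0.0244 for Low Protein, 0.0106, 0.0148 and 0.0234 for MAM, and 0.0111, 0.0238 and 0.0296 for Poly I:C. Below the lowest saline pup lay 4 of 6 MAM, 2 of 6 Low Protein and 1 of 6 Poly I:C pups, and all groups overlapped saline. The MAM mean was 0.671 times the saline mean, a log2 difference of -0.60 (standard error 0.253, 95% interval -1.12 to -0.07, limma adjusted p = 0.509, exact permutation p = 0.0303). It was -0.41 for Low Protein (-0.94 to 0.11, limma adjusted p = 0.760) and -0.07 for Poly I:C (-0.60 to 0.45, limma adjusted p = 0.960), and Poly I:C minus MAM was 0.52 (limma adjusted p = 0.283). Maob in MAM was the 1 call of 12 tests of members below the limit, in a fit where 9.79% of 13371 genes passed for MAM, 7.08% for Low Protein and 9.2% for Poly I:C. The call was lost without saline pup 1.3, saline pup 2.1, MAM pup 1.1, MAM pup 2.1, saline litter 2 or MAM litter 2, with differences of -0.52 to -0.50. Beside it in MAM, 2 of the 4 fitted markers of monoaminergic neurons, Slc18a2 and the serotonin synthesis gene Tph2, were lower at the unadjusted threshold (-0.66 and -1.54), Tph2 being at the offset in at least 1 pup. The summed level of that list was 0.147 to 0.306 in MAM, against 0.162 to 0.537 in saline. Of the 7 microglia markers, all above the offset in every pup, 2 were higher, C1qa and C1qb (0.39 and 0.33), with sums of 10.6 to 13.8 against 9.36 to 11.0, and 3 of 10 ganglionic eminence and GABAergic genes were lower. The part of these cells in the Maob value was not tested.

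**Figure D4:**
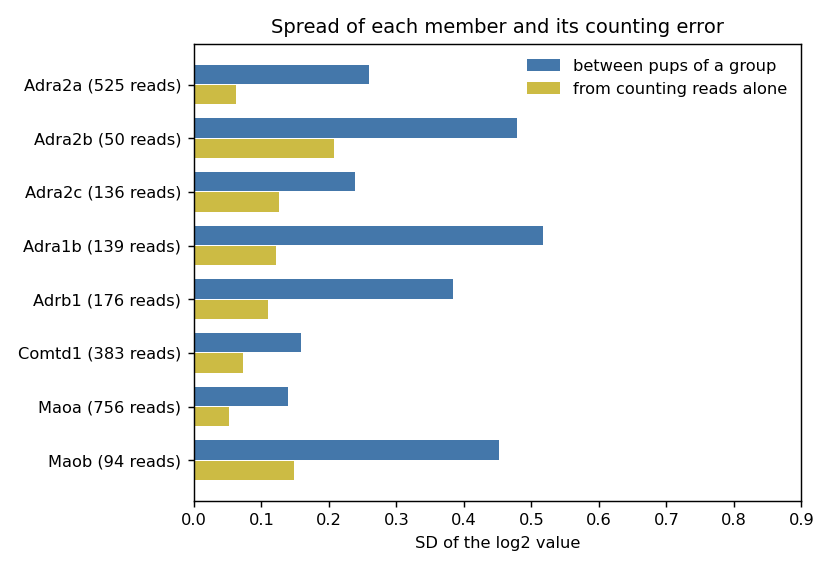
SD of the log2 value between pups of a group, pooled over the 4 groups (blue), and the SD that counting the estimated reads alone would give (yellow), for each of the 8 fitted members, with the median estimated reads per pup in brackets. The spread exceeds the counting error for every member, from 1.90 times for Adra2c to 4.28 times for Adra1b.

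The spread between pups exceeded the error from counting reads for every fitted member. The SD of the log2 value within groups was 0.140 for Maoa and 0.159 for Comtd1, against 0.0522 and 0.0727 from counting reads. For Adra1b it was 0.517, against 0.121, and for Adra2b 0.479, against 0.208. Adra2c, with a median of 136 reads, was nearest to its counting error, at 0.239 against 0.126.

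The other genes of the pathway followed in 7 lists of 88 symbols, of which 84 were in the table and 80 in the wider fit. For Low Protein 1 of the 80 was higher and 7 lower at an unadjusted limma p under 0.05, for MAM 0 and 8, and for Poly I:C 2 and 7. These are 10.0%, 10.0% and 11.3% of the fitted list genes, beside 7.08%, 9.79% and 9.2% of all genes fitted, and 0 passed after adjustment. Of 7 other adrenoceptors and dopamine receptors 0 passed. Drd1, the dopamine receptor with the highest level, averaged 1.57 ± 0.677 for saline, 1.45 ± 0.813 for Low Protein, 1.03 ± 0.117 for MAM and 1.20 ± 0.276 for Poly I:C (SD, n = 6), with limma adjusted p-values from 0.549 to 0.925. Of 10 genes of catecholamine synthesis, packaging and uptake, Slc18a2, the vesicular monoamine transporter, was lower in MAM by a log2 difference of -0.66 (limma adjusted p = 0.509), and Qdpr, which regenerates the cofactor of tyrosine hydroxylase, was lower in Poly I:C by -0.15 (limma adjusted p = 0.543). Th, tyrosine hydroxylase, was low, at 0.155 ± 0.0831 in saline (SD, n = 6), with limma adjusted p-values of at least 0.870. Aldh1a1, a dehydrogenase of the aldehydes that monoamine oxidase makes, was the 1 of 8 other degrading enzymes to pass, higher by 0.38 in Low Protein (limma adjusted p = 0.664) and by 0.29 in Poly I:C.

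Among the signalling partners, the Gi/o list of 14 genes had 3 lower for Low Protein, 2 for MAM and 3 for Poly I:C at the unadjusted threshold, and 0 higher. Gnai1, a Gi alpha subunit, was lower in MAM (log2 difference -0.26, limma adjusted p = 0.487) and Low Protein (-0.21, limma adjusted p = 0.684). Gnaz, a Gi-like alpha subunit, was lower in Low Protein (-0.32) and Poly I:C (-0.27), Gnao1, the Go alpha subunit, in Poly I:C (-0.26), and Cacna1b, the N-type calcium channel that these receptors inhibit, in Low Protein (-0.31). Of 20 genes of Gs coupling and cyclic AMP, 4 were lower for Low Protein, 3 for MAM and 2 for Poly I:C, where 1 was higher. Prkar1b, a regulatory subunit of protein kinase A, and the phosphodiesterase Pde4a were lower in Poly I:C (-0.30 and -0.32) and in Low Protein (-0.22 and -0.25). The adenylyl cyclase Adcy2 and the Gs alpha gene Gnas were lower in MAM (-0.37 and -0.16), Adcy2 also in Low Protein (-0.33). The Gq list of 8 genes gave Plcb4, a phospholipase C, lower in MAM (-0.33). The list of 13 receptor kinases, arrestins and RGS proteins gave Rgs10 lower in Poly I:C (-0.29, limma adjusted p = 0.352) and Rgs7 lower in MAM (-0.34, limma adjusted p = 0.509), both of which speed the end of G protein signals.

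The genes whose values followed each member most closely among the 5086 above the limit were read from the log2 values of 24 pups after the group means were subtracted, as a description. They were Trpv2, B3galt5 and Reep5 for Adra2a, with Pearson r of 0.86, 0.86 and 0.84 (Spearman rho 0.82, 0.84 and 0.80). For Adra2c they were Chchd10, Ggt7 and Pcdhb9, with r of 0.67, 0.66 and 0.65. Adrb1 was nearest to Gna11, which belongs to the Gq list, and to Mdc1 and Trap1, with r of 0.81, 0.80 and 0.80, and Comtd1 to Rhbdl1, B3gnt7 and Gpr45, with r of 0.81, 0.81 and 0.80. By Pearson r, Adra2c thus had looser neighbours than the other 3 members. By Spearman rho it did not stand apart from Adrb1, with 0.64, 0.74 and 0.57 for Adra2c against 0.79, 0.60 and 0.59 for Adrb1.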

How the data were processed

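The table of 24 pups was used as deposited. The authors trimmed reads at phred 30, aligned them to rn6 with STAR 2.4.1d, quantified RefSeq transcripts in Partek Flow and gave TPM values, to which 0.0001 had been added. These were taken to the log2 scale without a further offset. Groups were read from the sample labels. Litters were inferred from the first digit of the number in the sample title, and every litter result rests on this. Each treatment was compared with saline in limma 3.58.1 (lmFit and eBayes, R 4.3.3) with all 24 pups, over 5086 genes with a mean above 1 in every group, or 13371 genes above the offset in at least 18 pups, with Benjamini-Hochberg adjustment over all genes fitted and an unadjusted p under 0.05 for counts, without the log fold limit of 0.6 that the study added for Low Protein and Poly I:C. Single members were also compared by exact two-sided permutation tests. The limma script was tested on simulated data. Depths were estimated from steps of the value times the GRCr8 span, matched for 86.7% of genes, where 49.8% to 59.9% of the low values used lay within 0.05 of a whole read, against 10% by chance. They are approximate, and counting error does not cover differences between libraries. Values of all pups correlated at r of 0.967 to 0.996, so that no library was taken as a duplicate. The members, lists and tests were chosen with earlier results of these data known. Named genes are all members, list genes with a p under 0.05 (at most 4 a list), Th, the highest dopamine receptor and the 3 nearest genes of each member above the limit, and 1 further gene of the rule is not reported here. The alternatives changed the offset, filter, scaling, variance trend, groups in the fit, litter, replicate number and sex covariate, and left out each pup and litter.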

Additional observations from a re-analysis of the deposited data

Results flagged for a closer look

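Adrb1 in Poly I:C pup 1.3 was 0.433 and lay far below the other 5 pups of its group, the gap to the nearest being 0.688 of the range of the group on the log2 scale, past the critical value for 6 pups, and 0.547 on the scale of the deposited values, not past it. Of 32 groups of 6 pups examined on the log2 scale, 1 had one, and chance gives about 1 in 20. The difference of Adra2c from saline differed between Poly I:C and MAM, by -0.36 on the log2 scale (limma adjusted p = 0.104), past the unadjusted threshold.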

How the results depend on the processing

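The limma differences from saline, and those between treatments for members above the limit, were recomputed under 44 alternatives. Of these, 24 left out a pup, 8 left out a litter and 12 changed the offset, filter, scaling, variance trend, grouping, litter or covariates. Differences between litters were recomputed under 38 of them. Permutation tests, shares of the sum of squares and nearest genes were not recomputed. Adra2c in Poly I:C passed the unadjusted threshold in all 44, between -0.62 and -0.31, with adjusted p from 0.0365 to 0.954 (limma), and the Poly I:C count of members was 2 to 4. With only the 2 groups compared, 1 member, Comtd1, passed in MAM. Among the 12 contrasts between treatments, 2 passed with litter means and 2 with Eif2s3y as a covariate. Leaving out a pup or litter gave 0 to 3 members in Low Protein, 0 to 1 of the members below the limit, 0 to 4 contrasts between treatments and 1 to 2 contrasts between litters. Of the genes above the limit that passed in MAM, the share that was higher was 27.3% as deposited, 60.6% with median-of-ratios scaling and 56.5% with upper-quartile scaling. Some signs turned. Median-of-ratios scaling gave 0.0615 for Adra2a and 0.0002352 for Comtd1 between Low Protein litters, and upper-quartile scaling gave 0.0353 for Adra2a between Low Protein litters and 0.00239 for Comtd1 between MAM litters. With the Eif2s3y covariate, Adra2a in Poly I:C minus Low Protein was -0.0104, Maoa in Low Protein was -0.0341 and Adrb1 between saline litters was -0.0210. Leaving out a pup or litter moved the differences from saline from -0.0870 to 0.11 (Adrb1, MAM), -0.0437 to 0.0867 (Maoa, Low Protein), -0.12 to 0.00972 (Maoa, MAM), -0.00699 to 0.12 (Maoa, Poly I:C), -0.50 to 0.27 (Adra1b, Poly I:C), -0.18 to 0.49 (Adra2b, Poly I:C) and -0.37 to 0.23 (Maob, Poly I:C). Between treatments the ranges were -0.0954 to 0.0118 (Comtd1, Low Protein minus MAM), -0.42 to 0.20 (Adra2a, Poly I:C minus MAM), and, for Poly I:C minus Low Protein, -0.29 to 0.32 (Adra2a), -0.33 to 0.12 (Adrb1) and -0.20 to 0.0372 (Comtd1). Between litters they were -0.10 to 0.13 (Adra2c), -0.20 to 0.29 (Adrb1) and -0.0538 to 0.11 (Comtd1) in saline, -0.21 to 0.10 (Adra2a) and -0.20 to 0.0758 (Comtd1) in Low Protein, -0.13 to 0.23 (Adra2a), -0.27 to 0.15 (Adra2c) and -0.0586 to 0.0538 (Comtd1) in MAM, and -0.10 to 0.80 (Adrb1) in Poly I:C. The cause was not tested. With the replicate number as a block (replicate block), no call of a member against saline changed, and Adra2c in Poly I:C had a limma adjusted p = 0.116. The shared numbers are not known to pair pups. After subtracting group means, the 36 pairs with the same number correlated at r from -0.42 to 0.56. Their median r was 0.16, beside -0.02 for pairs with other numbers. With the block, 596, 794 and 652 genes above the limit passed the unadjusted threshold for Low Protein, MAM and Poly I:C. Without it these were 419, 572 and 506. Depth limits Drd4, and the design limits every result to 2 litters a group.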
